A study of Sus scrofa with 42 samples.

Results

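The enzymes that carry glucose to pyruvate and lactate, pyruvate into the mitochondrion and acetyl-CoA around the tricarboxylic acid (TCA) cycle were followed in single cells of pig embryos, as 44 genes chosen by symbol. They comprised 18 genes of glycolysis, 3 of the pentose phosphate branch, 8 at the entry of pyruvate and 15 of the TCA cycle. Of the 15351 genes with an FPKM value (fragments scaled by transcript length and by the mapped reads of the cell), 38 carried these names, 16, 3, 6 and 13 in the 4 groups. Another 6 (ENO1, ENO2, PDHA1, PDK1, CS and IDH1) were listed by gene ID only and were paired with their symbols through an annotation table. They are described here, but counts of members refer to the 38. The embryos came from oocytes of gilt ovaries from a slaughterhouse, matured in vitro. They were either fertilized in vitro (IVF) with fresh semen, in a medium that held glucose, pyruvate and caffeine, or activated parthenogenetically (PA) by electric pulses and then 6-dimethylaminopurine with cytochalasin B, which gives embryos without a paternal genome. Both kinds were then cultured in the same porcine zygote medium. Each method gave 3 zygotes, 6 blastomeres of 2-cell, 9 of 4-cell and 3 of 8-cell embryos, 42 cells of 20 embryos in all. Blastomeres of 1 embryo share their origin, so the mean FPKM over the sequenced blastomeres of an embryo was the unit compared, with n = 3 embryos per method at the 1-, 2- and 4-cell stages. The 8-cell stage had 1 embryo per method, and tests that involve it assume that this embryo varied like the others. From the summed FPKM of Y chromosome genes, the study typed 2 of the 3 IVF 4-cell embryos and the IVF 8-cell embryo as male. It typed all others, including every PA embryo, as female. The study placed major genome activation at the 4-cell stage, so typing by expression may miss male IVF embryos before it.

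Glycolysis splits glucose into pyruvate in the cytosol, and lactate dehydrogenase interconverts pyruvate and lactate. The pyruvate dehydrogenase complex turns pyruvate into acetyl-CoA in the mitochondrion, and the TCA cycle oxidizes it while reducing carriers for respiration. The pentose phosphate branch leads glucose 6-phosphate to NADPH and ribose. Cleavage-stage mammalian embryos are known for taking up pyruvate and lactate, with glucose use rising later in preimplantation development.

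The cells held between 4703744 and 16009003 reads on nuclear genes (median 10737746), as recovered from the steps of the FPKM values. Mitochondrial transcripts took 3.89% to 51.7% of an embryo's summed FPKM. Of the PA 4-cell blastomeres, 1-4 nearly repeated PA 2-cell blastomere 1-2 (Pearson's r of log2 values 0.9985 over genes) and 2-1 nearly repeated PA 2-cell blastomere 2-1 (r = 0.9988), where the next closest pair of cells reached 0.908. To which embryo each pair belongs cannot be told here, so results that rest on PA 4-cell embryos are also given without these 2 blastomeres. PA 4-cell embryo 1 then rests on 1 blastomere. Of 14 oocyte markers, 11 were listed, and their summed FPKM lay between 513 and 1578 in the 1- to 4-cell embryos but was 76.2 in the 8-cell embryo from IVF and 56.1 in that from PA, with BTG4 at 1 FPKM or more in all 42 cells and FIGLA, TLE6 and ZAR1 at a median of 0. Of 16 cumulus and granulosa cell markers, 9 were listed, with sums of 0.498 to 23.5. Of 11 sperm markers, 3 were listed, with sums of 0 to 28.0, the highest in the PA 8-cell embryo, where ACRBP gave it.

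Between 8 and 22 of the 38 members reached 1 FPKM in an embryo. Lactate dehydrogenase B (LDHB) was the only member at 1 FPKM or more in all 20 embryos (without the 2 repeated blastomeres, PA 4-cell embryos 1 and 2 were at 0.267 and 0.288), and by its mean of 35.6 FPKM it ranked 524 among the 15351 genes. A copy of LDHB on another chromosome is listed as a gene of its own, and how reads shared with it were counted is not given in the sources used here. Another 8 members (HK1, PFKL, TPI1, ENO3, PKM, PC, IDH3G and OGDH) stayed under 1 FPKM in every embryo. Several central enzymes of glycolysis were low. Triosephosphate isomerase (TPI1) reached at most 0.187 FPKM, the pyruvate kinase PKM 0.905, the glucose 6-phosphate isomerase GPI 2.66 and GAPDH, which oxidizes glyceraldehyde 3-phosphate, 6.88 in the highest embryo. These genes have near-identical copies in mammalian genomes, and how reads shared with a copy were counted is not given in the sources used here, so the values are levels assigned to the named gene. Of the TCA cycle, the α-ketoglutarate dehydrogenase subunit OGDH reached 0.626 FPKM and the mitochondrial isocitrate dehydrogenase subunit IDH3G 0.520. Of the 38 members, 30 passed the filter of 1 FPKM in at least 3 cells and were tested (11 of glycolysis, 3 of the pentose phosphate branch, 5 of pyruvate entry and 11 of the TCA cycle), as did 5 of the 6 matched by gene ID.

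**Figure D1:**
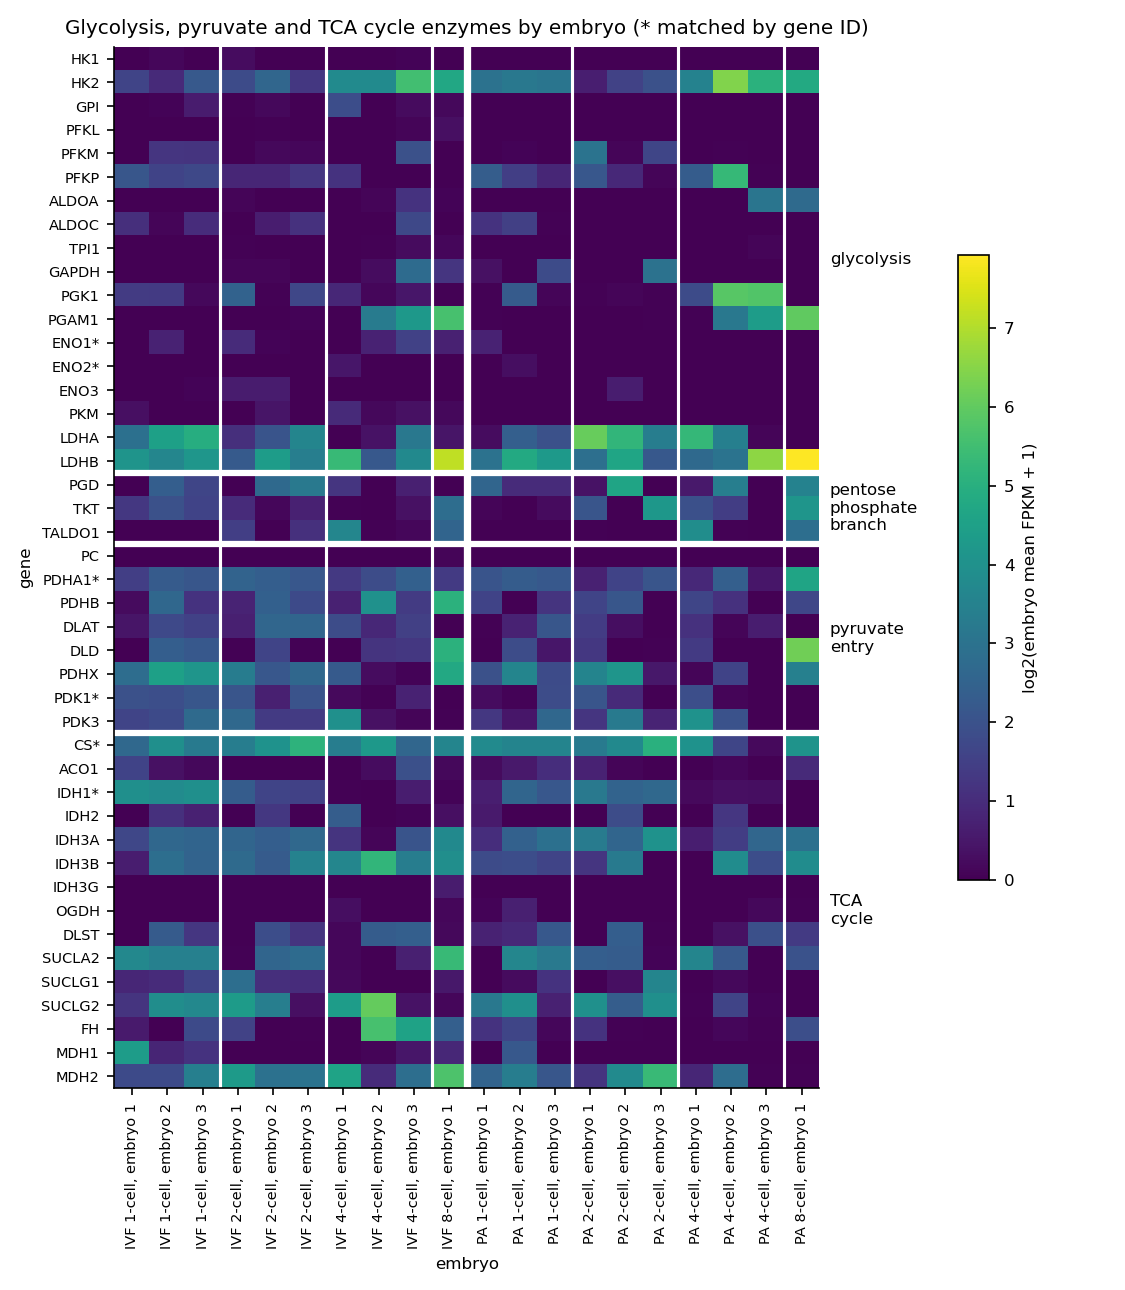
Level of each of the 44 enzymes (rows, grouped by role) in each of the 20 embryos (columns), as log2 of the embryo mean FPKM plus 1, with genes matched by gene ID starred. LDHB is the one row above 1 FPKM throughout, while HK1, PFKL, TPI1, ENO3, PKM, PC, IDH3G and OGDH stay dark in every embryo.

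Where a reaction has several isozymes, 1 gene usually gave most of the summed FPKM. Hexokinase 2 (HK2), the mitochondrion-bound enzyme that phosphorylates glucose, held 90.8% to 100% of HK1 plus HK2 in the 19 embryos where the sum reached 1 FPKM. The mitochondrial malate dehydrogenase MDH2 exceeded its cytosolic counterpart MDH1 in 16 of 17 such embryos, IVF 1-cell embryo 1 being the exception. PFKP, a phosphofructokinase isoform, held over 50% of the phosphofructokinase sum in 9 of 12 embryos and PFKM in 3. Among the subunits of succinyl-CoA synthetase, the GTP-linked SUCLG2 was over 50% in 9 and the ADP-linked SUCLA2 in 7 of 18 embryos.

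The lactate dehydrogenase pair differed between embryos. LDHA, the muscle-type subunit, made up 28.6% to 65.5% of LDHA plus LDHB at the IVF 1-cell stage and 2.71% to 13.8% at the PA 1-cell stage. At the 2-cell stage its share was 13.8% to 54.1% in the IVF and 60.1% to 91.2% in the PA embryos. In the 8-cell embryos LDHB, the heart-type subunit, held 99.75% (IVF) and 99.99% (PA). For LDHA, the IVF embryos held 6.53, 21.5 and 29.5 FPKM at the 1-cell, 1.12, 3.21 and 11.2 at the 2-cell, 0.00420, 0.310 and 8.00 at the 4-cell and 0.355 at the 8-cell stage. The PA embryos held 0.192, 4.26 and 2.88, then 66.1, 36.5 and 9.29, then 38.2, 9.61 and 0.0817 and finally 0.0188 FPKM at these stages. The PA 1- and 2-cell embryos did not overlap, and PA 4-cell embryos 1 and 2 fell to 3.12 and 0.109 without the 2 blastomeres that repeat 2-cell cells. For LDHB, the IVF embryos held 16.3, 11.3 and 17.1 FPKM at the 1-cell, 3.76, 19.99 and 9.50 at the 2-cell, 39.8, 3.57 and 12.5 at the 4-cell and 143 at the 8-cell stage. PA values were 6.91, 27.2 and 18.00 at the 1-cell, 6.37, 24.2 and 3.56 at the 2-cell, 5.57, 7.18 and 95.4 at the 4-cell and 242 at the 8-cell stage. Each 8-cell embryo was above all earlier embryos of its method, and the 1- to 4-cell groups overlapped (PA 4-cell embryos 1 and 2 were at the values given above without the repeated blastomeres).

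Promoters are shown for 3 enzymes on which the stage comparisons below turn, the dihydrolipoamide dehydrogenase gene DLD and the phosphoglycerate mutase gene PGAM1, which were higher in the 8-cell embryos of both methods, and the phosphoglycerate kinase gene PGK1, whose highest values were in PA 4-cell embryos. The windows run 5′ to 3′ from 250 bases before to 50 bases after the RefSeq gene start (Sscrofa11.1), which lies 65, 101 and 68 bases downstream of the start in the authors' table. Capitals mark matches on either strand to CCAAT or to the GC box GGGCGG, whose copies overlap in places.
DLD (chr9:107641879-107642178, plus strand): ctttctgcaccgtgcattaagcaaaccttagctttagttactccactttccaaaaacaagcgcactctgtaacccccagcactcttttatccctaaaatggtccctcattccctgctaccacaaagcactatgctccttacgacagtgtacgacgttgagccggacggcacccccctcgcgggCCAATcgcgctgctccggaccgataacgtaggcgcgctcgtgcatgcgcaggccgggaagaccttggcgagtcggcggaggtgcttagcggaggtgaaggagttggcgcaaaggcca
PGAM1 (chr14:108822532-108822831, plus strand): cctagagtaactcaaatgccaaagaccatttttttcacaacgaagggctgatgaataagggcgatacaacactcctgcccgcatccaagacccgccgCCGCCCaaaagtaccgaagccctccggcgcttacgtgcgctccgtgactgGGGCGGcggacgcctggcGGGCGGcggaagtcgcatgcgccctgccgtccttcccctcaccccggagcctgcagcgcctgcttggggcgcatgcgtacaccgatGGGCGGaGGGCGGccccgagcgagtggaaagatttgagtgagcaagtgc
PGK1 (chrX:62187222-62187521, plus strand): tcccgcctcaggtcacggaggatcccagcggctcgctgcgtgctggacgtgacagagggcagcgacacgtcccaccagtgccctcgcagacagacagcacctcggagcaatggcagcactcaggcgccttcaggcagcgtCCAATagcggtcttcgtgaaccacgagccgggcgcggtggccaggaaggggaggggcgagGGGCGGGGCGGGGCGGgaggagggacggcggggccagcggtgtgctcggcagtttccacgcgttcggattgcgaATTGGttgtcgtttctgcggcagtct
The DLD window held 1 CCAAT match and no GC box, that of PGAM1 held 5 GC boxes and no CCAAT, and that of PGK1 held 2 CCAAT matches and 3 GC boxes. Of 19556 protein-coding promoters of this length, 35.4% held CCAAT and 50.6% the GC box. None of the 3 windows held TATAAA (10.9% of promoters), the E-box CACGTG (7.92%), TGACGTCA (2.26%) or the NRF1 motif (1.12%). These matches describe letters only.

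From the 1- to the 2-cell stage, no member passed the test in either method (limma, adjusted p below 0.05 and at least 2-fold), where 0% of all 8116 tested genes were called in IVF and 0.0986% in PA embryos. At an unadjusted p below 0.05 there were 1 of 30 members in IVF and 4 in PA embryos, beside 2.66% and 4.85% of all tested genes. Cytosolic malate dehydrogenase (MDH1) was 19.8, 0.755 and 1.23 FPKM in the IVF 1-cell and 0, 0 and 0 in the 2-cell embryos (log2 fold change −2.11, SE 0.70, adjusted p = 1). In PA embryos LDHA was higher in all 3 2-cell than in all 3 1-cell embryos (log2 fold change 3.35, SE 1.19, adjusted p = 0.751). In this step 11.6% of all tested genes in IVF and 11.9% in PA embryos had groups that did not overlap. The median log2 fold change of the 30 members was −0.15 in IVF and 0.01 in PA embryos, beside −0.11 and −0.09 over all tested genes.

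From the 2- to the 4-cell stage, 1 of 30 members, HK2, rose in the PA embryos, where 0.394% of all tested genes were called. For HK2, the IVF embryos held 2.09, 0.908 and 3.63 FPKM at the 1-cell, 2.48, 5.13 and 1.42 at the 2-cell, 12.9, 12.8 and 44.7 at the 4-cell and 26.2 at the 8-cell stage. From the PA zygotes onwards it was 6.85, 8.09 and 7.49, next 0.579, 1.93 and 2.94, next 10.4, 84.4 and 32.1 and last 27.1. All 3 PA 4-cell embryos lay above the 3 PA 2-cell embryos, where the groups of 12.1% of all tested genes did not overlap (log2 fold change 3.60, SE 0.77, adjusted p = 0.0414). Without the 2 repeated blastomeres, PA 4-cell embryos 1 and 2 were at 19.2 and 111 FPKM and the fold change was 4.00 (adjusted p = 0.00327). Leaving out PA 2-cell embryo 1, 2 or 3, or PA 4-cell embryo 2 or 3, took the adjusted p to between 0.0949 and 0.152. In the IVF embryos no member was called (1.11% of all genes were), with 4 of 30 members at an unadjusted p below 0.05, beside 17.6% of all genes. HK2 did not overlap between these IVF stages either, as held for 20.3% of all tested genes (log2 fold change 2.47, SE 0.77, adjusted p = 0.105). Without IVF 4-cell embryo 1, HK2 (2.75, adjusted p = 0.0494), fumarase (FH, 4.54, adjusted p = 0.00143) and PGAM1 (3.75, adjusted p = 0.0182) were called. The difference of the step between the methods was not called for HK2 (log2 fold change −1.13, SE 1.09, adjusted p = 0.94, 95% interval −3.41 to 1.14).

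PGK1, which makes the first ATP of glycolysis, stood apart in the PA 4-cell embryos. In each of them a single blastomere gave nearly all of the value (99.5%, 99.8% and 99.9% in embryos 1, 2 and 3). For PGK1, the IVF embryos held 1.60, 1.57 and 0.131 FPKM at the 1-cell, 4.66, 0.0250 and 2.21 at the 2-cell, 0.855, 0.0973 and 0.408 at the 4-cell and 0.0379 at the 8-cell stage. In PA embryos the 1-cell values were 0.0223, 3.85 and 0.0736, the 2-cell values 0.0303, 0.0895 and 0.0331, the 4-cell values 2.48, 57.6 and 53.8 and the 8-cell value 0.00860. PA 4-cell embryos 2 and 3 were above every other embryo, and embryo 1 still lay above all PA 2-cell embryos (log2 fold change 4.41, SE 0.98, adjusted p = 0.0511). Without the 2 repeated blastomeres embryos 1 and 2 were at 4.94 and 76.7 FPKM, embryo 1 then resting on 1 blastomere. In that setting 4 members were called in this step, beside 7.47% of all genes, with PGK1 at 4.80 (adjusted p = 0.00356). The others were HK2, LDHA at −4.12 (adjusted p = 0.0174) and MDH2 at −3.39 (adjusted p = 0.0443). Over all genes the calls in this step went from 31 higher and 1 lower to 93 higher and 507 lower in that setting. The median log2 change of all genes went from −0.165 to −0.448. Among the genes matched by ID, the cytosolic isocitrate dehydrogenase IDH1 was then at −2.70 (adjusted p = 0.0173), against −2.53 (adjusted p = 0.145) with all blastomeres.

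**Figure D2:**
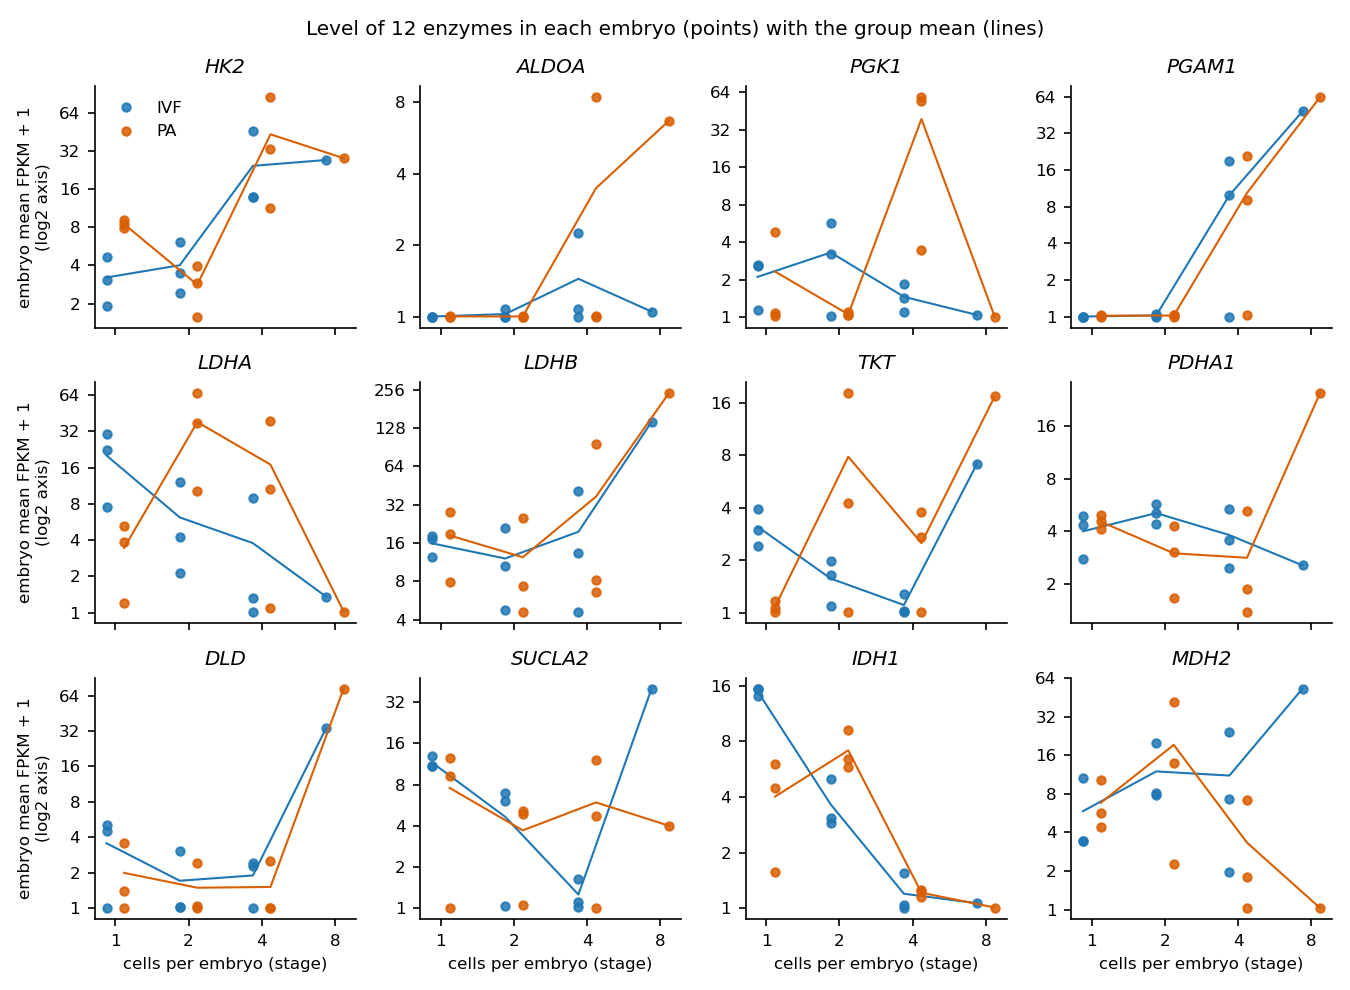
Embryo mean FPKM plus 1 (log2 axis) of 12 enzymes at the 1-, 2-, 4- and 8-cell stages, each point an embryo (blue IVF, orange PA) and lines joining group means. PGAM1 is near the floor up to the 2-cell stage and at 47.8 and 62.9 FPKM in the 8-cell embryos, and PGK1 is high in 2 PA 4-cell embryos.

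PGAM1, which moves the phosphate of phosphoglycerate, was almost unread before the 4-cell stage. For PGAM1, the IVF embryos held 0, 0 and 0 FPKM at the 1-cell, 0, 0.0125 and 0.0491 at the 2-cell, 0, 8.92 and 17.9 at the 4-cell and 47.8 at the 8-cell stage. The PA embryos held 0.0340, 0 and 0.0149, then 0, 0.0214 and 0.0342, then 0.0360, 8.05 and 20.02 and finally 62.9 FPKM at these stages. The values split the 4-cell embryos, since embryo 1 of each method was near 0 and embryos 2 and 3 were at 8.05 FPKM or more. Within IVF embryos 2 and 3, 1 of 2 and 2 of 4 blastomeres reached 1 FPKM. Within PA embryos 2 and 3, 1 of 4 and 1 of 3 did. A difference between embryos thus cannot be told apart here from one between blastomeres. Embryos 1 and 2 of the PA 4-cell stage were at 0.0590 and 10.7 without the repeated blastomeres. The 8-cell embryos were above all others, and against the 1-cell stage PGAM1 rose in both methods (log2 fold change 5.61, SE 1.43, adjusted p = 0.0134 in IVF and log2 fold change 5.97, SE 1.43, adjusted p = 0.00926 in PA). The 3 IVF 1-cell embryos held no read of PGAM1. The mean of the 8-cell embryo was thus at least 854-fold higher than 3 reads in each of those libraries would give. Of that mean, 1 of 3 blastomeres gave 99.4%, and blastomere 1-1, at 0.0458 FPKM, was below the 0.0559 FPKM of 3 reads. The fitted fold change depends on the 1 FPKM added before taking logs. In PA embryos the 1-cell stage held 4 reads, a ratio of 3857 with a 95% counting interval of 1506 to 14160. The 4- to 8-cell step was 3.09 in IVF and 3.46 in PA embryos and was not called (adjusted p = 0.238 and 0.16).

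DLD, the dihydrolipoamide dehydrogenase shared by the pyruvate and α-ketoglutarate dehydrogenase complexes, rose in the 8-cell embryos of both methods. For DLD, the IVF embryos held 0.0154, 4.13 and 3.56 FPKM at the 1-cell, 0.0341, 2.08 and 0.0268 at the 2-cell, 0.00469, 1.27 and 1.44 at the 4-cell and 32.9 at the 8-cell stage. PA values were 0.00933, 2.60 and 0.394 at the 1-cell, 1.44, 0.00495 and 0.0394 at the 2-cell, 1.54, 0.0118 and 0.00696 at the 4-cell and 72.4 at the 8-cell stage. Each 8-cell embryo was far above all earlier ones, none of which passed 4.13 FPKM. The 1.54 FPKM of PA 4-cell embryo 1 came from a repeated blastomere, and embryos 1 and 2 were at 0.0324 and 0.0158 without both. Against the 4-cell stage DLD was higher in the IVF 8-cell embryo (log2 fold change 4.26, SE 1.16, adjusted p = 0.0281). The same step in PA embryos gave a larger value (log2 fold change 5.74, SE 1.16, adjusted p = 0.00295), which was 6.17 (adjusted p = 0.00129) without the 2 repeated blastomeres. Against the 1-cell stage the values were 3.56 (adjusted p = 0.045) and 5.42 (adjusted p = 0.00416). The IVF calls were lost without IVF 4-cell embryo 1 (adjusted p = 0.0561) and, against the 1-cell stage, without IVF 1-cell embryo 1 (adjusted p = 0.119) or 3 (adjusted p = 0.0559). With 0.1 FPKM added in place of 1, or with only the compared groups in the fit, DLD kept its direction but no call in either method (adjusted p = 0.0557 to 0.457 over these 8 tests). Averaging log2 values over blastomeres also ended both IVF calls (adjusted p = 0.056 and 0.0875), and rescaling to nuclear genes ended the one against the 1-cell stage (adjusted p = 0.0719).

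In all, 2 of 30 members were called from the 4- to the 8-cell stage in IVF embryos, beside 6.97% of all tested genes, and 2 in PA embryos, beside 9.99%. Between the 1- and the 8-cell stage the counts were 2 members (14.3% of all genes) and 4 members (13.8%). A single 8-cell embryo lay outside the range of the earlier group for 53.2% of all tested genes (IVF) and 57.6% (PA) against the 4-cell stage, and for 77.3% and 73.1% against the 1-cell stage. The oocyte marker sum fell to the values given above in the same 8-cell embryos, and its part in these differences was not tested. The second IVF call from the 4-cell stage was SUCLA2. For SUCLA2, the IVF embryos held 11.9, 9.89 and 9.99 FPKM at the 1-cell, 0.0379, 5.02 and 5.89 at the 2-cell, 0.113, 0.0186 and 0.638 at the 4-cell and 39.3 at the 8-cell stage. From the PA zygotes onwards it was 0, 11.4 and 8.24, next 4.16, 3.90 and 0.0450, next 11.09, 3.68 and 0.00714 and last 3.00. Without the repeated blastomeres PA 4-cell embryos 1 and 2 were at 14.5 and 3.08. The IVF 8-cell value came from 1 of 3 blastomeres (118, 0 and 0 FPKM), above a 4-cell group that was itself below the 1-cell embryos. The call (log2 fold change 5.04, SE 1.51, adjusted p = 0.0497) was lost without any 1 of the IVF 4-cell embryos (adjusted p = 0.0588 to 0.0757) and without the 2 repeated PA blastomeres (adjusted p = 0.061).

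The second PA call from the 4-cell stage was PGK1, which fell from the 4-cell values given above to 0.00860 FPKM (log2 fold change −4.47, SE 1.38, adjusted p = 0.0452). It was −4.86 (adjusted p = 0.0221) without the 2 repeated blastomeres. The call was lost without PA 4-cell embryo 2 (adjusted p = 0.0913) or 3 (adjusted p = 0.088), and with embryo number as a replicate block (−4.20, adjusted p = 0.0886). Of 10 alternatives other than leaving out an embryo, 6 lost the PGK1 call, that block among them. Against the PA 1-cell stage, transketolase (TKT), of the non-oxidative pentose phosphate branch, and the aldolase ALDOA were called beside DLD and PGAM1. For TKT, the IVF embryos held 1.43, 2.94 and 1.99 FPKM at the 1-cell, 0.9748, 0.0924 and 0.651 at the 2-cell, 0.0300, 0.0148 and 0.282 at the 4-cell and 6.16 at the 8-cell stage. In PA embryos the 1-cell values were 0.0695, 0.00749 and 0.174, the 2-cell values 3.28, 0.0132 and 17.2, the 4-cell values 2.79, 1.73 and 0.0155 and the 8-cell value 16.4. The repeated blastomere 1-4 gave the 2.79 FPKM of PA 4-cell embryo 1, and embryos 1 and 2 were at 0 and 2.30 without the pair. In the PA 8-cell embryo 1 of 3 blastomeres gave 99.7% of the TKT value. The PA 8-cell embryo exceeded the 1-cell embryos (log2 fold change 4.00, SE 1.18, adjusted p = 0.0303) but lay within the range of the PA 2-cell embryos. For ALDOA, the IVF embryos held 0, 0 and 0 FPKM at the 1-cell, 0.0718, 0 and 0 at the 2-cell, 0, 0.0737 and 1.25 at the 4-cell and 0.0491 at the 8-cell stage. The PA embryos held 0, 0.00364 and 0, then 0, 0 and 0.00199, then 0, 0.00143 and 7.43 and finally 5.71 FPKM at these stages. Of the 3311 ALDOA reads in the PA 8-cell embryo, 3309 came from blastomere 1-4. The ratio given next thus rests on 1 of 3 blastomeres, a spread that its counting interval does not cover. PA 4-cell embryo 3 was higher than the 8-cell embryo, and the 1-cell embryos held 1 read in all, for a ratio of 4696 with a counting interval of 843 to 185500 (log2 fold change 2.74, SE 0.81, adjusted p = 0.0306). Both calls were lost when any 1 of the PA 1-cell embryos was left out (adjusted p = 0.0554 to 0.0645 for TKT and 0.0586 to 0.059 for ALDOA).

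**Figure D3:**
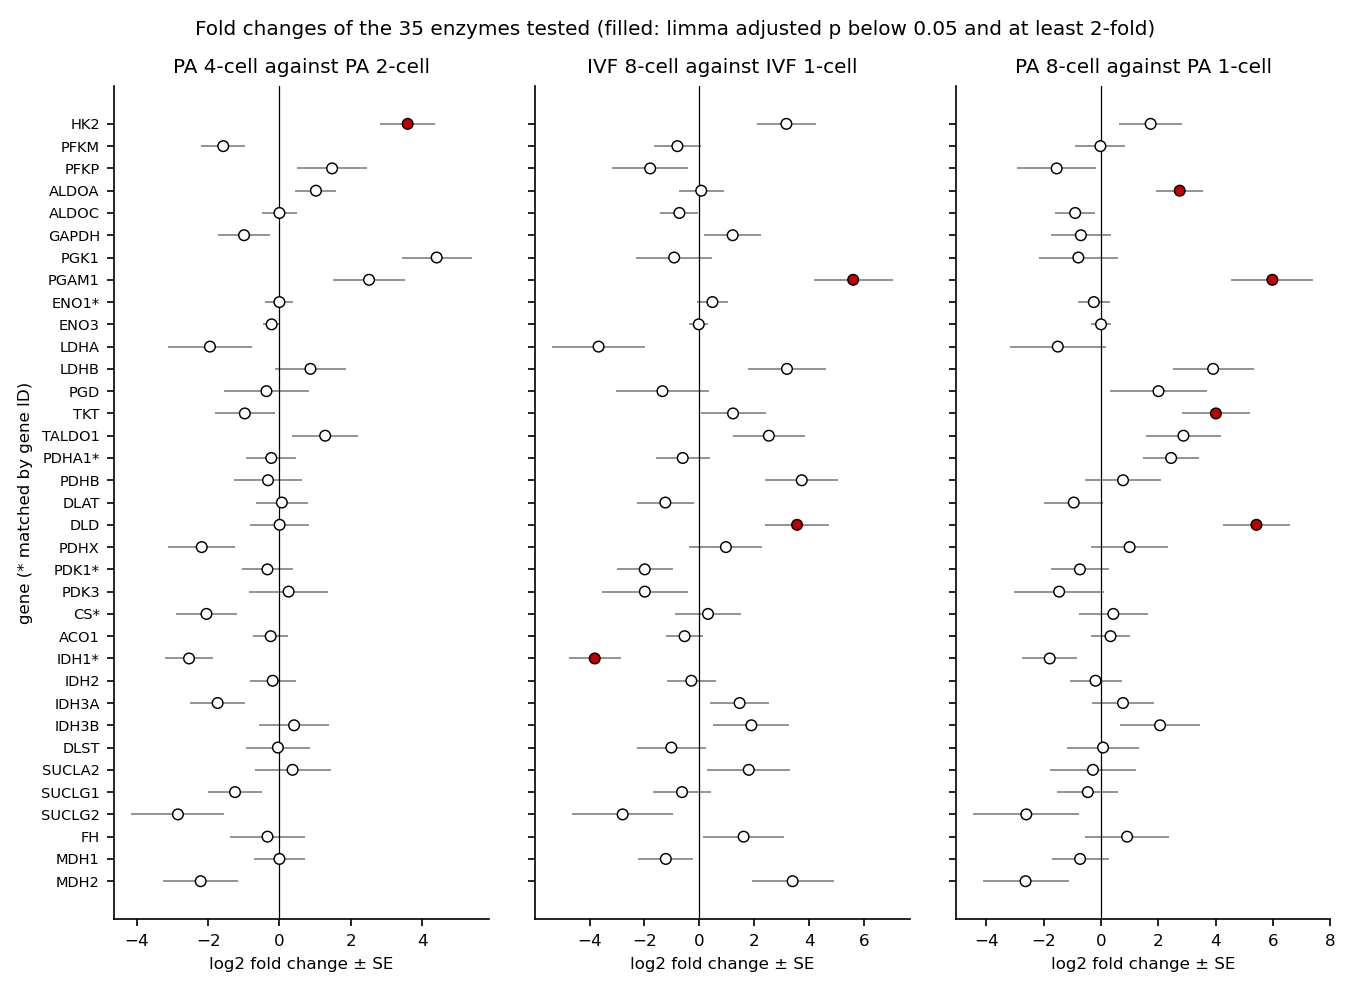
Log2 fold change with its SE of the 35 enzymes tested, in 3 comparisons of stages (8116 genes in the fit), filled where limma's adjusted p was below 0.05 and the change at least 2-fold. HK2 is filled in the first panel, PGAM1, DLD and IDH1 in the second, and PGAM1, DLD, TKT and ALDOA in the third.

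Among the genes matched by gene ID, IDH1 and PDHA1 were called. For IDH1, the IVF embryos held 14.3, 13.1 and 14.5 FPKM at the 1-cell, 3.99, 2.06 and 1.88 at the 2-cell, 0.0425, 0 and 0.547 at the 4-cell and 0.0628 at the 8-cell stage. PA values were 0.570, 5.05 and 3.45 at the 1-cell, 8.22, 4.80 and 5.46 at the 2-cell, 0.150, 0.247 and 0.237 at the 4-cell and 0.00755 at the 8-cell stage. PA 4-cell embryos 1 and 2 were at 0 and 0.0167 without the repeated blastomeres. The 3 IVF 1-cell embryos lay above all others, and IDH1 fell to the 8-cell stage (log2 fold change −3.81, SE 0.95, adjusted p = 0.0118). For PDHA1, the catalytic α subunit of pyruvate dehydrogenase, the IVF embryos held 1.79, 3.86 and 3.35 FPKM at the 1-cell, 4.73, 4.11 and 3.41 at the 2-cell, 1.47, 2.58 and 4.37 at the 4-cell and 1.56 at the 8-cell stage. From the PA zygotes onwards it was 3.14, 3.93 and 3.56, next 0.668, 2.04 and 3.29, next 0.874, 4.22 and 0.381 and last 23.7. Leaving out the repeated blastomeres put PA 4-cell embryos 1 and 2 at 0.0280 and 4.39. The PA 8-cell embryo was the highest and the IVF 8-cell embryo lay within the IVF 4-cell range. PDHA1 rose in PA embryos from the 4-cell stage (log2 fold change 3.37, SE 0.99, adjusted p = 0.0346, and 3.65 with adjusted p = 0.0287 without the 2 repeated blastomeres). Without PA 4-cell embryo 1 or 3 the adjusted p was 0.0634 and 0.0642. Of 10 alternatives other than leaving out an embryo, 4 lost the PDHA1 call (log2 fold change 2.11 to 5.25 over the 10). Citrate synthase (CS), which starts the TCA cycle and had the highest mean of these genes (12.5 FPKM), was not called in any comparison.

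Other abundant members were not called with all blastomeres. For PDHX, which tethers DLD in the pyruvate dehydrogenase complex, the IVF embryos held 6.15, 21.8 and 16.5 FPKM at the 1-cell, 9.10, 3.43 and 5.32 at the 2-cell, 3.71, 0.199 and 0.0469 at the 4-cell and 26.8 at the 8-cell stage. In PA embryos the 1-cell values were 2.94, 11.11 and 2.53, the 2-cell values 11.01, 16.6 and 0.424, the 4-cell values 0.0700, 2.00 and 0.0106 and the 8-cell value 10.02. Nearly all of the 2.00 FPKM in PA 4-cell embryo 2 came from a repeated blastomere, with embryos 1 and 2 at 0 and 0.0292 without both. The IVF 8-cell embryo was above all 4-cell embryos (log2 fold change 3.94, SE 1.33, adjusted p = 0.0882). For MDH2, the IVF embryos held 2.45, 2.40 and 9.71 FPKM at the 1-cell, 18.96, 6.82 and 7.07 at the 2-cell, 23.1, 0.965 and 6.27 at the 4-cell and 51.9 at the 8-cell stage. The PA embryos held 4.71, 9.26 and 3.39, then 1.28, 12.8 and 40.7, then 0.805, 6.15 and 0.0302 and finally 0.0260 FPKM at these stages. At the 8-cell stage MDH2 was the highest value of the IVF series and, with all blastomeres, the lowest of the PA series, while PA 4-cell embryos 1 and 2 fell to 0.0242 and 0.0693 without the repeated blastomeres. For SUCLG2, the IVF embryos held 1.28, 13.7 and 12.02 FPKM at the 1-cell, 19.4, 9.45 and 0.258 at the 2-cell, 20.03, 65.6 and 0.295 at the 4-cell and 0.0924 at the 8-cell stage. PA values were 8.07, 14.4 and 0.668 at the 1-cell, 14.9, 4.07 and 14.5 at the 2-cell, 0.0297, 2.07 and 0.0583 at the 4-cell and 0.0113 at the 8-cell stage. The repeated blastomere 2-1 gave the 2.07 FPKM of PA 4-cell embryo 2, and embryos 1 and 2 were at 0.0510 and 0.0260 without the pair. Both 8-cell embryos were below 0.1 FPKM, and single embryos at the 4-cell stage differed widely. For PGD, the decarboxylating step of the pentose phosphate branch, the IVF embryos held 0, 4.15 and 2.18 FPKM at the 1-cell, 0, 5.52 and 8.13 at the 2-cell, 1.32, 0 and 0.606 at the 4-cell and 0 at the 8-cell stage. From the PA zygotes onwards it was 5.05, 0.951 and 0.958, next 0.299, 23.9 and 0, next 0.445, 9.37 and 0.0129 and last 10.4. The 9.37 FPKM of PA 4-cell embryo 2 came from blastomere 2-1 (37.4 FPKM), which repeats PA 2-cell blastomere 2-1 (38.9 FPKM), and embryos 1 and 2 were at 0.0300 and 0.0224 without the repeated blastomeres. With all blastomeres its groups overlapped at every stage with replicates.

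No member was called between IVF and PA embryos at the 1-, 2- or 4-cell stage, where 0.0493%, 0% and 0.554% of all tested genes were called. The counts at an unadjusted p below 0.05 were 1, 2 and 5 of 30, beside 4.09%, 5.43% and 14% of all genes. Groups that did not overlap were found for 17.9%, 15.6% and 12.7% of all tested genes. The intervals were wide, with a median SE over members of 0.91 on the log2 scale. All 3 IVF 1-cell embryos had more LDHA than the PA ones (log2 fold change 2.58, SE 1.19, adjusted p = 1), and at the 2-cell stage the groups overlapped (−2.63, adjusted p = 0.901). At the 4-cell stage PGK1 was lower in all 3 IVF than in all 3 PA embryos (log2 fold change −3.98, SE 0.98, adjusted p = 0.069). It was called without the 2 repeated blastomeres (−4.37, adjusted p = 0.0113, beside 4.13% of all genes). In each PA 4-cell embryo 1 blastomere gave nearly all of the PGK1 value. PGK1 lies on the X chromosome, and 2 of these 3 IVF embryos were typed as male. A part of sex in this difference was not tested. FH was at 0.0169, 47.6 and 22.5 FPKM in the IVF and 0, 0.0917 and 0.0416 in the PA 4-cell embryos (0 and 0.0821 in embryos 1 and 2 without the repeated blastomeres), which overlapped (log2 fold change 3.33, SE 1.04, adjusted p = 0.139). Tests of whether a step differed between the methods called no member for any of the 3 steps, beside 0%, 0% and 2.86% of all genes, with 3, 3 and 1 of 30 members at an unadjusted p below 0.05, beside 2.8%, 5.35% and 14.5% of all genes. The 95% interval for DLD in the last step was −4.90 to 1.94 on the log2 scale.

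The 8-cell embryos, 1 per method and so without a test between them, are given side by side. In the IVF embryo MDH2 was at 51.9, SUCLA2 at 39.3 and PDHB, the β subunit of pyruvate dehydrogenase, at 32.8 FPKM. In the PA embryo the same genes were at 0.0260, 3.00 and 2.24. Blastomere 1-1 gave 99.1% of the IVF value of MDH2, 100% of that of SUCLA2 and 67.4% of that of PDHB. The PA values of SUCLA2 and PDHB each came from 1 blastomere. PDHA1 (1.56 and 23.7 FPKM), PGD (0 and 10.4) and ALDOA (0.0491 and 5.71) were higher in the PA embryo. Of these PA values the highest blastomere gave 78.7%, 100% and 99.95%. PDHA1 lies on the X chromosome and the IVF embryo was typed as male, and a part of sex was not tested. HK2 was at 26.2 and 27.1 FPKM, of which 1 blastomere gave 96.6% and 82.2%.

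Summed over the 16 genes, glycolysis FPKM was 41.9 ± 12.5, 23.9 ± 9.02 and 60.3 ± 35.2 (mean ± SD, n = 3) at the IVF 1-, 2- and 4-cell stages and 219 in the 8-cell embryo. In PA embryos it was 32.8 ± 13.7, 57.6 ± 29.8, 158 ± 84.6 and 338. Without the repeated blastomeres the PA 4-cell embryos were at 29.2, 249.7 and 209 (mean 163 ± 117), against 60.6, 205 and 209 with them. The 13 TCA cycle genes summed to 45.1 ± 3.88, 41.0 ± 14.2, 88.3 ± 57.8 and 125 in IVF embryos. In PA embryos they summed to 32.0 ± 16.2, 51.9 ± 26.3, 17.5 ± 9.99 and 28.1. The 3 PA 4-cell embryos (12.6, 29.0 and 10.9) lay below the 3 IVF 4-cell embryos (60.4, 155 and 49.7) in the TCA sum, and without the 2 repeated blastomeres they were at 14.7, 18.1 and 10.9. The ratio of the glycolysis to the TCA sum was 4.82 to 19.2 in the PA 4-cell and 12.01 in the PA 8-cell embryo, and 0.169 to 1.94 and 1.76 in the IVF embryos of these stages. Without the repeated blastomeres it was 2.00, 13.8 and 19.2 in PA 4-cell embryos 1, 2 and 3, the first near the highest IVF 4-cell value. Genes matched by gene ID, citrate synthase (CS) among them, are not in these sums. CS was at 15.5, 2.12 and 0.143 FPKM in the PA 4-cell embryos, above the TCA sum in embryo 1. Without the repeated blastomeres CS was at 21.6 and 0.790 in embryos 1 and 2. In the IVF 4-cell embryos CS was at 9.33, 17.7 and 5.10, and at the 8-cell stage at 11.2 (IVF) and 15.9 (PA). Ratios with CS were not computed. The ratio was 0.75 to 1.18 at the 1-cell stage of both methods. At the 2-cell stage it was 0.24 to 0.896 in IVF and 0.306 to 2.58 in PA embryos. PA 2-cell embryos 1 and 2, the latter at 1.545, exceeded every IVF 2-cell embryo. LDHB gave 65.1% and 71.7% of the glycolysis sum in the IVF and PA 8-cell embryos, and without LDHA and LDHB the sums were 76.0 and 95.7 FPKM. In PA 4-cell embryos 2 and 3 HK2 and LDHB led the glycolysis sum, with 41.1% and 45.7%. The TCA sum was led by IDH3B in PA 4-cell embryo 2 (46.2%) and the PA 8-cell embryo (47.4%), and by IDH3A in PA 4-cell embryo 3 (46.75%). The values of IDH3A and IDH3B cannot be separated from those of overlapping genes, as given below. In the IVF 4-cell embryos MDH2, SUCLG2 and FH led the TCA sum. No test was run on sums. Mitochondrial transcripts, which enter the FPKM total, took 26.7% to 38.4% in the IVF and 18.5% to 51.7% in the PA 4-cell embryos, and their part in the sums was not tested.

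**Figure D4:**
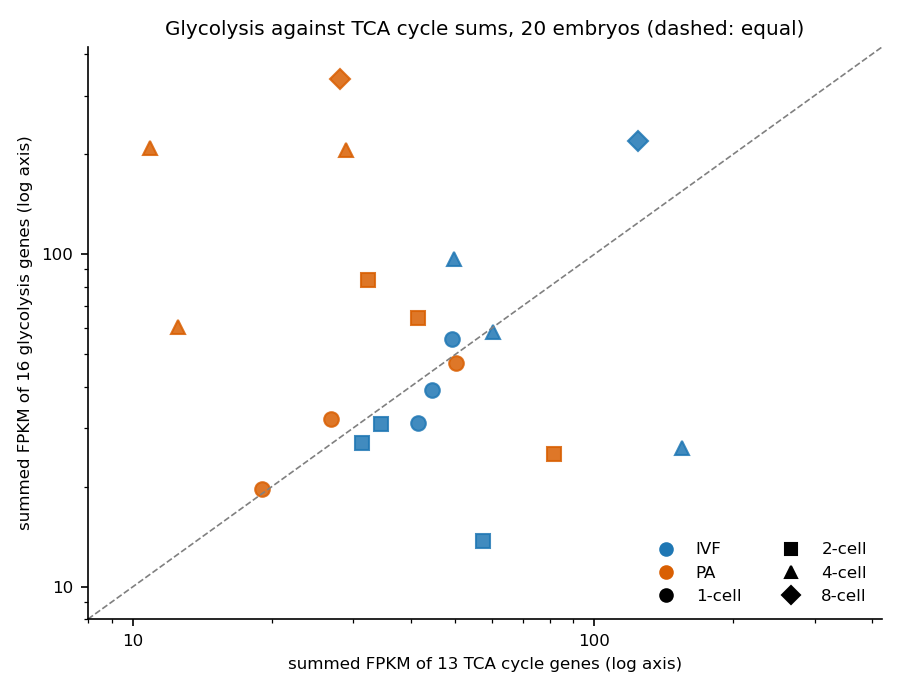
Summed FPKM of 16 glycolysis genes against that of 13 TCA cycle genes in each of the 20 embryos (log axes, colour for method, symbol for stage, dashed line where both are equal). The 3 PA 4-cell and the PA 8-cell embryos lie well above the line, with ratios of 4.82 to 19.2 with all blastomeres. Without the repeated ones PA 4-cell embryo 1 is at 2.00. Genes matched by gene ID, CS among them, are not in the sums.

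Sister blastomeres of 1 embryo often differed widely. In the IVF 8-cell embryo PGAM1 was at 0.0458, 0.782 and 142 FPKM in the 3 blastomeres, DLD at 25.98, 72.3 and 0.514, HK2 at 0, 2.68 and 75.8 and LDHB at 312, 39.7 and 76.1. In the PA 8-cell embryo PGAM1 was at 48.3, 138 and 2.67, DLD at 0.130, 129.6 and 87.4, HK2 at 14.4, 66.8 and 0 and LDHB at 548, 178 and 0. The blastomere that was high for one enzyme could be at 0 for another, as IVF blastomere 1-1 was the highest for LDHB and at 0 for HK2. At the 4-cell stage PGAM1 reached 17.8 FPKM in IVF blastomere 2-2 (737 reads) and 0.0198 in its sister 2-3 (1 read). PGK1 in PA 4-cell embryo 2 was at 0.218, 0.0941, 0.0416 and 229.9 FPKM, so that 1 blastomere gave nearly all of the embryo's value. Over the members at a mean of 1 FPKM or more in an embryo, the highest blastomere gave a median of 77.3% to 99.8% of the embryo's total in 2-cell embryos, beside 68.6% to 91.2% over all tested genes. In the IVF 4-cell embryos these medians were 81.6% to 99.2% and 81.6% to 99.1%. Few members were at 1 FPKM or more in all sisters, 1 of 15 in the PA and 2 of 14 in the IVF 8-cell embryo (18.9% and 21.3% of all genes). Amplification from 1 cell and differences between cells cannot be told apart here.

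**Figure D5:**
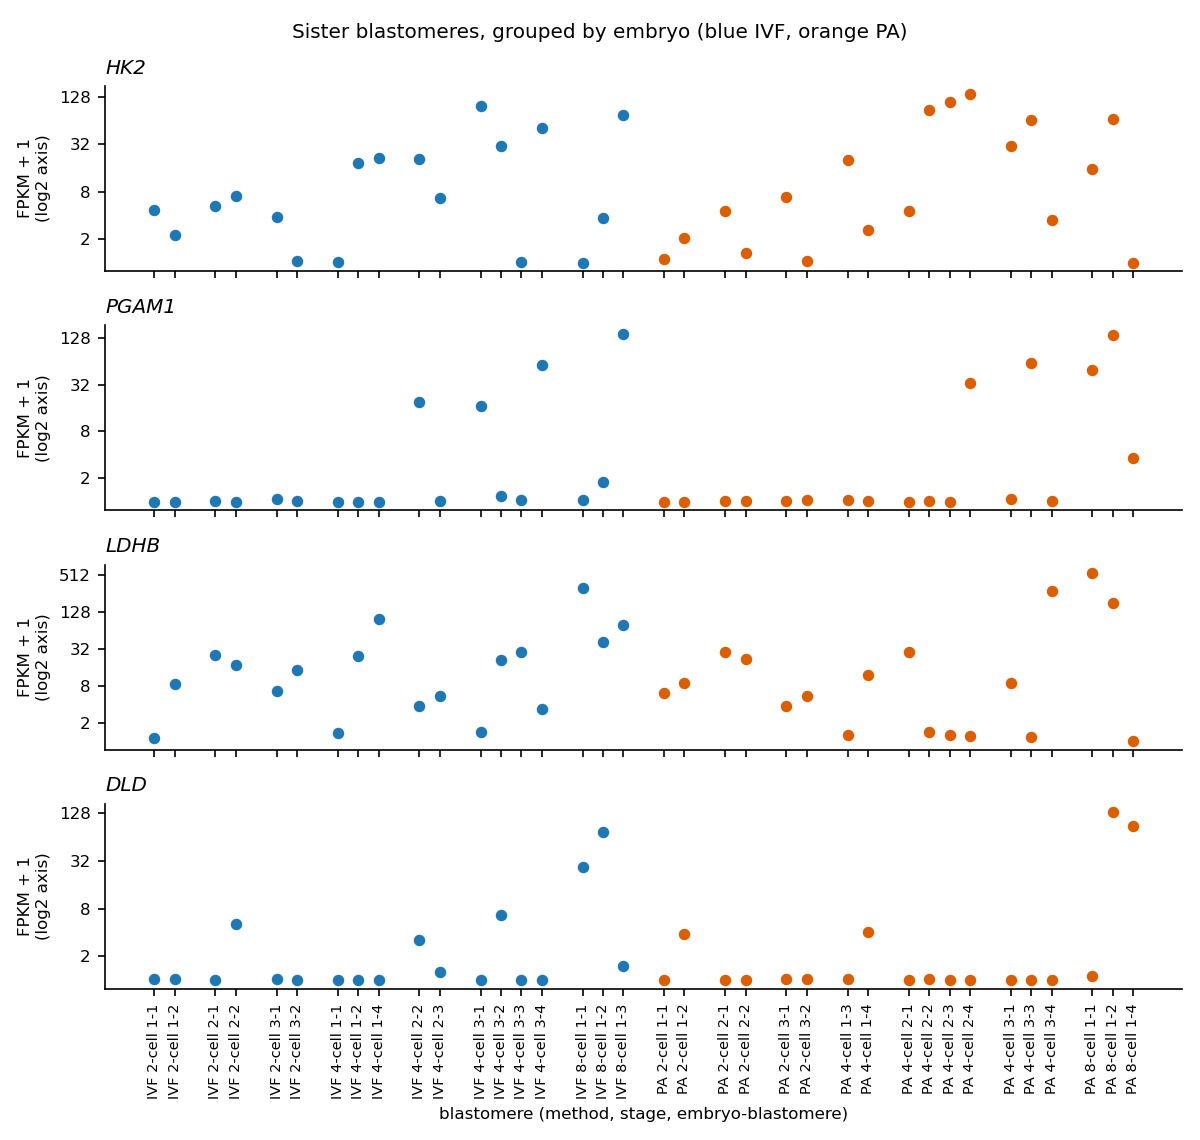
FPKM plus 1 (log2 axis) of HK2, PGAM1, LDHB and DLD in each blastomere of the 2-, 4- and 8-cell embryos, sisters side by side and embryos set apart by gaps (blue IVF, orange PA). Within the 8-cell embryos DLD spans 0.514 to 72.3 FPKM (IVF) and 0.13 to 130 FPKM (PA).

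Several members share their locus with another gene, and whether reads were counted by strand is not given in the sources used here. Over the 42 cells the log2 values of IDH3A and the overlapping ACSBG1 had r = 0.992, those of IDH3B and NOP56 0.991, and those of IDH3G and SRPK3 0.991. Values of 0.793 to 0.887 were found for ENO2 with LRRC23, IDH2 with ZNF710, ENO3 with CAMTA2, DLST with RPS6KL1, TPI1 with SPSB2 and PFKP with PITRM1. The values of these members cannot be separated from their partners here. The members called in a comparison (HK2, ALDOA, PGK1, PGAM1, TKT, DLD and SUCLA2) were not among these 9, although ALDOA overlaps PPP4C (r = 0.456).

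Of 80 further genes of the pathways (other isoforms, succinate dehydrogenase, transporters, regulators and shuttles), 64 were listed and 33 were tested. Called were 8 from the 4-cell and 8 from the 1-cell to the 8-cell stage in IVF embryos, and 7 each in PA embryos, where 6.97%, 14.3%, 9.99% and 13.8% of all tested genes were called. The mitochondrial pyruvate carrier MPC1 had the largest increases. It was 0, 0 and 0 FPKM in the IVF 1-cell, 0.309, 12.2 and 0.884 in the 2-cell, 0, 0.0799 and 0.515 in the 4-cell and 68.1 in the 8-cell embryos. In the PA 1-cell embryos it was 1.95, 0 and 0, in the 2-cell embryos 0, 0 and 0, in the 4-cell embryos 0, 0.0732 and 0.0459 and in the 8-cell embryo 126 FPKM. One IVF 2-cell embryo stood above the other embryos of the 1- to 4-cell stages. The change from the 1- to the 8-cell stage was 6.11 (adjusted p = 0.000583) in IVF and 6.47 (adjusted p = 0.000413) in PA embryos. SDHD, an anchor subunit of succinate dehydrogenase, rose from the 1-cell stage in PA embryos (4.57, adjusted p = 0.0261) and from the 4-cell stage in IVF embryos (5.10, adjusted p = 0.0196). The lactate and pyruvate transporter SLC16A1 rose from the 1-cell stage in PA embryos (3.41, adjusted p = 0.0214), a call lost without the 2 repeated blastomeres (adjusted p = 0.0654). From the PA 4-cell stage SLC16A1 was also called (3.36), and that call was kept without these blastomeres (4.78). In IVF embryos SLC16A1 was not called, at 33.3, 35.2 and 39.0 FPKM at the 1-cell and 158 at the 8-cell stage. The PA 1-cell embryos were at 13.5, 15.0 and 10.1 FPKM and the PA 8-cell embryo at 145. The mitochondrial malic enzyme ME2 fell, from 142, 186 and 204 to 5.17 FPKM in IVF and from 142, 135 and 116 to 0.720 in PA embryos (−4.83 and −6.26, adjusted p = 8.12e-05 and 6.89e-06). HIF1A, a hypoxia-responsive regulator of glycolysis genes, fell from the 4- to the 8-cell stage in IVF embryos (−5.04, adjusted p = 0.000511), as did the ADP-dependent glucokinase ADPGK (−4.64, adjusted p = 0.0306, and 0.0612 without the repeated blastomeres) and the sugar transporter SLC2A12 (−4.13, adjusted p = 0.0113).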

How the data were processed

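Single zygotes and blastomeres were amplified with Ansuper-seq, which takes transcripts with and without a poly(A) tail, and sequenced on the HiSeq X-Ten. The authors aligned clean reads to Sscrofa11.1 with HISAT2 and deposited 1 table of FPKM values per gene and cell, made with StringTie and HTSeq. Tool versions, annotation release, strandedness and the treatment of multi-mapped reads are not given in the sources used here, and the extraction in the labels differs from that in the study's methods. Depth was 4703744 to 16009003 reads on nuclear genes, recovered from the FPKM steps. No molecular identifiers were used, so intervals and floors cover counting error only.

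FPKM values were averaged over the blastomeres of each of the 20 embryos, taken as replicates by the labels. Whether the embryos came from separate batches of oocytes is not given in the sources used here, so p-values measure the spread between these embryos. Genes with at least 1 FPKM in at least 3 cells (8116) were tested on log2(FPKM + 1) with limma 3.58.1 in R 4.3.3 (moderated with a trend, all 8 groups in 1 fit, Benjamini-Hochberg over all genes). Calls needed an adjusted p below 0.05 and a change of at least 2-fold, and fold changes on this scale understate those of low genes. The 14 comparisons were successive stages and 8- against 1-cell within a method, IVF against PA within a stage, and the difference of each step. Members and lists were chosen with earlier results of these data known. Named were members called in a comparison and the 2 of highest mean in each role. Scripts were tested on simulated data (Python 3.11.15, pandas 2.3.3, scipy 1.17.1). Alternatives were the constant added, the filter, 2 rescalings, averaging on the log2 scale, fits of the compared groups only, a block of embryo number, and leaving out embryos or the 2 repeated blastomeres. Promoters were read from the RefSeq Sscrofa11.1 genome.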

Additional observations from a re-analysis of the deposited data

Results flagged for a closer look

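For TKTL1, a transketolase-like gene of the further pathway list, the step from the 4- to the 8-cell stage differed between the methods by −7.37 on the log2 scale (IVF minus PA, limma, adjusted p = 0.0152). The IVF 4-cell embryos were at 0.416, 0 and 26.1 FPKM and the IVF 8-cell embryo at 0.00705. The PA 4-cell embryos were at 0.0439, 0.0278 and 0.0393 FPKM and the PA 8-cell embryo at 50.3. Without the 2 repeated blastomeres the difference was −7.36 (adjusted p = 0.0143). It rests on 1 embryo per method at the 8-cell stage and on IVF 4-cell embryo 3 for the fall in IVF. It was singled out because the effects of the 2 methods differed by a test of the difference itself. In that test 2.86% of all tested genes were called, and TKTL1 was one of 33 further pathway genes tested.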

How the results depend on the processing

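Of the 13 gene results that were called, no alternative turned the direction. The number of members called moved most with the median-ratio scaling (from 1064 genes), to 7 and 11 for the IVF 8-cell embryo against the 4- and 1-cell stage, 2 for the PA 2- to 4-cell step, 5 and 8 for the PA 8-cell embryo against the 4- and 1-cell stage, 2 for IVF against PA 4-cell embryos, and 1 and 5 for the 2- to 4-cell and 4- to 8-cell steps in IVF against PA. This scaling moved the median log2 change of all genes by 0.765 (IVF) and 0.504 (PA) between the 1- and 8-cell stage, and higher against lower calls over all genes from 489 and 668 to 1492 and 121 in IVF and from 615 and 504 to 1721 and 120 in PA embryos. From the 4- to the 8-cell stage the split went from 302 and 264 to 972 and 176 (IVF) and from 553 and 258 to 1197 and 332 (PA), and for IVF against PA 4-cell embryos from 34 and 11 to 103 and 287. Adding 0.1 instead of 1 FPKM gave 0, 1, 0, 0 and 2 members for IVF 8- against 4-cell, IVF 8- against 1-cell, PA 4- against 2-cell, PA 8- against 4-cell and PA 8- against 1-cell. Adding 5 gave 0 for PA 4- against 2-cell, 3 for IVF 8- against 1-cell and 5 for PA 8- against 1-cell. No filter gave 1, 0 and 1 for IVF 8- against 4-cell, PA 4- against 2-cell and PA 8- against 4-cell, and a filter of 5 FPKM gave 2 for PA 4- against 2-cell and 1 for IVF against PA 4-cell embryos. Rescaling nuclear genes gave 1, 1 and 2 for IVF 8- against 4-cell, IVF 8- against 1-cell and PA 4- against 2-cell. Averaging log2 values gave 0 and 1 for the IVF 8-cell comparisons. Fitting only the groups compared gave 0 and 5 for these and 0 for PA 4- against 2-cell and 8- against 4-cell. Without the 2 repeated blastomeres the counts were 1 for IVF 8- against 4-cell, 4 for PA 4- against 2-cell and 1 for IVF against PA 4-cell embryos. Same-numbered embryos deviated together in 1 comparison, PA 4- against 2-cell (r = 0.355, 0.282 and 0.1), where the 2 repeated blastomeres carry the same embryo numbers as their partners. Without them r was −0.0131, 0.00865 and −0.00561. In that comparison the replicate block kept the count at 1, with HK2 at 3.60 (adjusted p = 0.0472). Of the other 18 pairs, 1 had r above 0.1. The replicate block gave 1 member each for IVF and PA 8- against 4-cell, ending the calls of SUCLA2 (adjusted p = 0.0577) and PGK1 (adjusted p = 0.0886), and 3 for IVF 8- against 1-cell. Leaving out 1 embryo gave 0 to 3 members for IVF 4- against 2-cell, 1 to 2 for each IVF 8-cell comparison, 0 to 2 for PA 4- against 2-cell, 1 to 4 for PA 8- against 4-cell, 2 for PA 8- against 1-cell, 0 to 2 for IVF against PA 4-cell embryos and 0 to 1 for the 2 later steps in IVF against PA. The cause of these changes was not tested. PGAM1 against the 1-cell stage stayed called in both methods in every alternative run, while TKT, ALDOA and SUCLA2 were lost with each embryo left out.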
